A study of Mus musculus with 8 samples.

Results

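The 8 genes described here, Dnmt1, Dnmt3a, Dnmt3b, Dnmt3l, Uhrf1, Tet1, Tet2 and Tet3, encode the core enzymes and partners that write, copy and oxidise DNA methylation. They were listed by name for their function, with results of these data already known, and all 8 were found among the 21900 protein-coding genes of the RefSeq table. H2A.Z, a variant of histone H2A found at gene starts, was mapped by chromatin immunoprecipitation and sequencing in mouse testis cells on postnatal day 14. Libraries came from testes with a conditional deletion of Znhit1 (genotype Znhit1-CKO in the labels, Znhit1-sKO in their protocol) and from control testes, with 2 immunoprecipitates and 2 inputs per genotype. ZNHIT1 is a subunit of the SRCAP complex, which places H2A.Z in chromatin, and the series asks how it shapes H2A.Z occupancy in germ cells. The Cre driver, the floxed allele, the strain and the controls' alleles were not given in the sources used here. The cells were dissociated whole testis, so germ cells and somatic cells were mixed. In such a mixture, fewer cells of a type and less H2A.Z per cell cannot be told apart.

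The intervals compared are the authors' Znhit1-CKO peaks, their control peaks and their list of regions that differ between the genotypes. There is 1 list of each kind, so no value below has a replicate error and no difference was tested. Unless stated, counts over the 8 genes stand beside the same counts over all protein-coding genes. A peak is only an interval that passed the authors' threshold, and its width is used here as its only measure. The differential regions carry no direction and 99.98% of them are exactly 400 bp wide, so they mark a place and not an extent. Read totals per library are not in the lists. The deleted gene itself had a boundary peak of 1422 bp in Znhit1-CKO testes and of 2003 bp in control testes, which does not check the deletion.

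DNA methylation in mammals is laid down on CpG dinucleotides by DNMT3A and DNMT3B. DNMT3L has no catalytic activity of its own and stimulates them, and in the male germ line it is needed before birth, when the methylation of sperm is established. DNMT1 copies methylation onto the new strand after replication, and UHRF1 brings it to hemimethylated CpGs. The TET enzymes oxidise methylcytosine, which opens the way to its removal. Dnmt3l is known as a gene of germ cells and early embryos, while Dnmt1, Dnmt3a, Uhrf1, Tet2 and Tet3 are used in many tissues and Dnmt3b and Tet1 mainly in embryonic cells and germ cells. H2A.Z and DNA methylation are known to occupy largely separate parts of the genome.

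The starts of Dnmt3l and Dnmt1 are shown first, since the results at both genes turn on which start lies under a peak. Each line is a RefSeq start window of GRCm38.p6, from 250 bases before to 50 bases after an annotated start, 5′ to 3′ on the gene's strand, with every CpG in capitals. Aire, the gene of a thymic transcription regulator, is shown because its start lies under the peak nearest the upstream end of Dnmt3l. Starts are numbered from upstream to downstream.
Dnmt3l start 1, chr10:78042037-78042336, plus strand: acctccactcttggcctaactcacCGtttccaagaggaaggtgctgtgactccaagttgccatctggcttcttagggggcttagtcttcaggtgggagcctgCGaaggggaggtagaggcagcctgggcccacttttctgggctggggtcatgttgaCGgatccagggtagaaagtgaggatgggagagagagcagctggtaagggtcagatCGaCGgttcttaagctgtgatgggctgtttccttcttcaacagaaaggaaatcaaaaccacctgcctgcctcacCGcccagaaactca
Dnmt3l start 3, chr10:78055085-78055384, plus strand: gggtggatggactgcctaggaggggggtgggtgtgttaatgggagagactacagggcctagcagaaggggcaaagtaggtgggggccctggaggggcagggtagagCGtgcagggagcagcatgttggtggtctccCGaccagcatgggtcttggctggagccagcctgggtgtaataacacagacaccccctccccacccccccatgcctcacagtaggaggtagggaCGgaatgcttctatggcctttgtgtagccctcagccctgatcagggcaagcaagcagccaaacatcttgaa
Aire start, chr10:78043561-78043860, minus strand: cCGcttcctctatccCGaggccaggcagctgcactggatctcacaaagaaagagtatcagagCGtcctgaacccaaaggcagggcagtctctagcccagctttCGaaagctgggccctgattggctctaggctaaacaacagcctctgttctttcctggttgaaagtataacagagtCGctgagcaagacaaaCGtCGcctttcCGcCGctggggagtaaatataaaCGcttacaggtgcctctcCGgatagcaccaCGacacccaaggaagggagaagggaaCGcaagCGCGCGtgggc
Dnmt1 start 1, chr9:20959839-20960138, minus strand: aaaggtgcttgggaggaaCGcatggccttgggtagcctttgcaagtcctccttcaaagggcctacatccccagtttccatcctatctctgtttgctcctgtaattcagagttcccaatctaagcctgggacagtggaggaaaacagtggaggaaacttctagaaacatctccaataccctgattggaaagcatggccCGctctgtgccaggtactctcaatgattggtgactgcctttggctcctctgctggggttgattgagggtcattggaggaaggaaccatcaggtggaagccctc
Dnmt1 start 3, chr9:20952574-20952873, minus strand: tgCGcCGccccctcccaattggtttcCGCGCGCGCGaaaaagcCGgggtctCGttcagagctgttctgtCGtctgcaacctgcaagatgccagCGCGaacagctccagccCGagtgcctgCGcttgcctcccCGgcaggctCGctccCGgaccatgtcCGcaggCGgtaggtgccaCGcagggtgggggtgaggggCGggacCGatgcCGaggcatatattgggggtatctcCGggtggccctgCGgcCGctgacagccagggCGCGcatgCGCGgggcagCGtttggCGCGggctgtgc

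All 8 genes had an H2A.Z peak within 1 kb of at least 1 RefSeq start in both Znhit1-CKO and control testes. Over all 17492 protein-coding genes with a listed start, 61.6% had one in Znhit1-CKO and 67.7% in control testes. None of the 8 lost it, against 9.68% of the 11844 genes with a control peak at a start. A differential region lay within 1 kb of a start at 6 of the 8, all but Dnmt3l and Tet1, against 64.2% of those genes. All 8 genes had a differential region somewhere in the gene or its 1 kb flanks, against 53.6% of all protein-coding genes. The 8 are 20150 to 112885 bp long, and of the 9998 genes at least as long as the shortest of them 69.2% had one. The 8 genes have 15 listed starts between them, so several had more than 1 chance of a peak.

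Measured from the outer ends of each gene in place of its starts, the picture differed at Dnmt1, Dnmt3a and Dnmt3l. A peak lay within 1 kb of a gene end at 5 of the 8 genes in Znhit1-CKO testes and at 6 in control testes, against 60.4% of all protein-coding genes in Znhit1-CKO testes and 67.6% in control testes. Dnmt1 and Dnmt3a had none in either list. Their widest peaks lay over starts inside the annotated gene, and their other peaks were also more than 1 kb from an end. Dnmt3l was the only 1 of the 6 to lose its end peak, against a background of 11.5% of genes. That loss rests on distance alone. The control peak began 916 bp from the gene end and the overlapping Znhit1-CKO peak 1091 bp from it, just outside the 1 kb limit. Other peaks close to the limit were a Znhit1-CKO peak of Tet3 at 1078 bp and a control peak of Dnmt1 at 1129 bp. A differential region lay within 1 kb of an end at 4 of the 6 genes with a control peak there, namely Dnmt3b, Uhrf1, Tet2 and Tet3, against 62.8% of such genes, and at 4 of all 8, against 42.6% of all protein-coding genes.

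**Figure D1:**
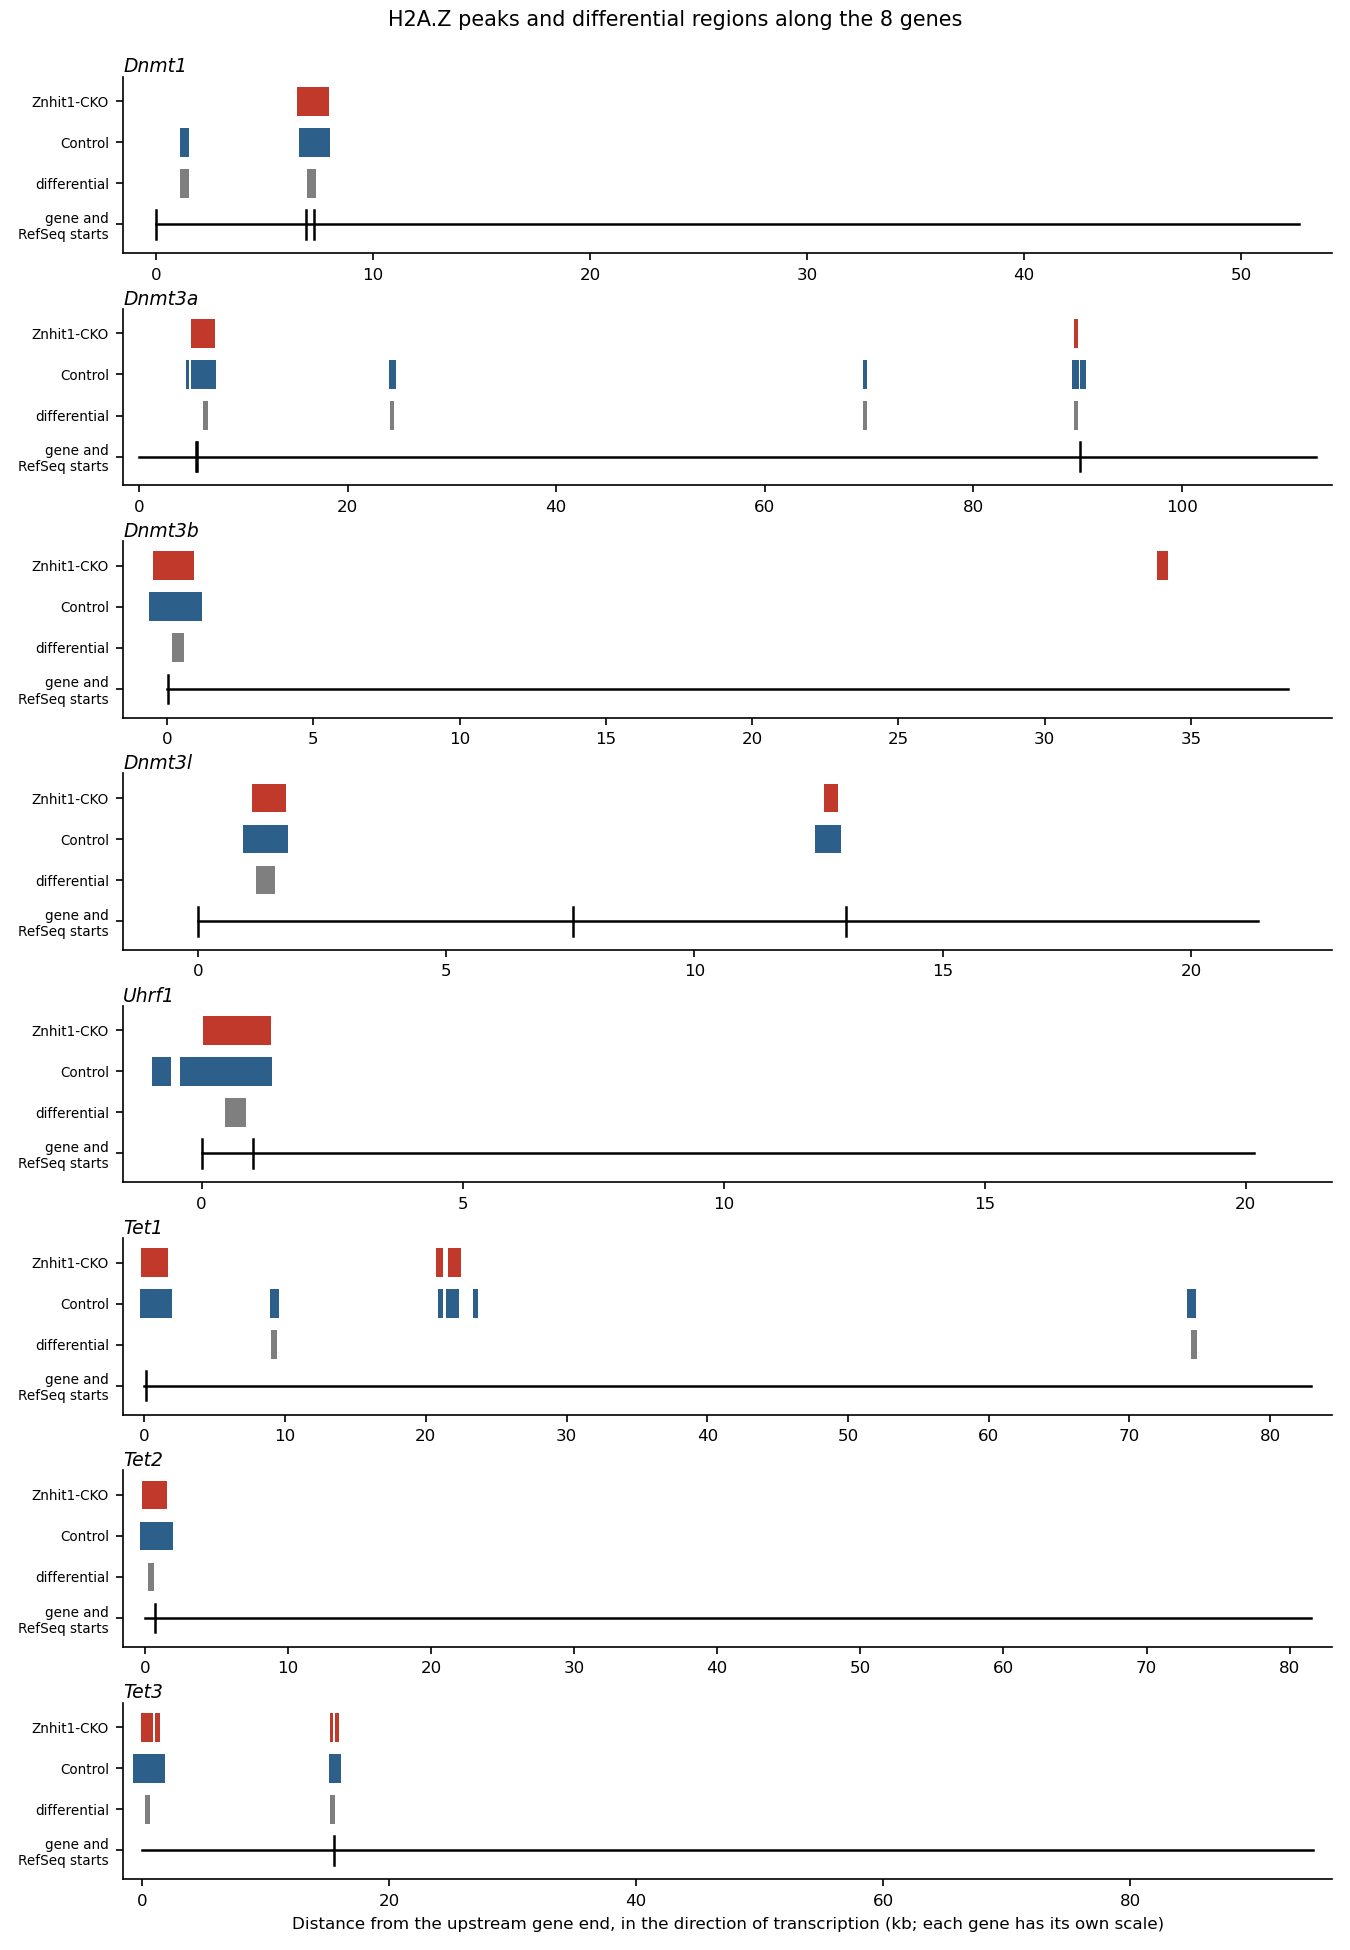
Intervals along each gene, with distance from its upstream end in kb on the x axis and the Znhit1-CKO peaks, control peaks, differential regions and gene (line, with a tick at each RefSeq start) as rows. At Dnmt1 and Dnmt3a the widest peak lies kilobases inside the gene, and control peaks with no Znhit1-CKO peak are narrow.

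Dnmt3l, the cofactor of the de novo enzymes, had 2 peaks in each list, and both were narrower in Znhit1-CKO testes. It lies at chr10:78042287-78063622 and has 3 listed starts. Its upstream peak was 677 bp wide in Znhit1-CKO testes (chr10:78043378-78044054) and 898 bp in control testes (chr10:78043203-78044100), and a differential region lay on it, 1164 bp from the gene end and so just outside the 1 kb limit. This peak did not reach start 1 of Dnmt3l. It covered the whole 300 bp start window of Aire, which is transcribed in the other direction, in both lists, and the differential region covered 290 bp of that window. The peak nearest the outer end of Dnmt3l thus lay over the start of Aire and over no listed start of Dnmt3l. Which of the 2 genes its H2A.Z belongs to was not tested.

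The second Dnmt3l peak lay inside the gene, just upstream of start 3. It was 287 bp wide in Znhit1-CKO testes (chr10:78054888-78055174) and 516 bp in control testes (chr10:78054717-78055232), with no differential region. The Znhit1-CKO peak reached 90 bp into the 300 bp window of start 3 and the control peak 148 bp. Start 2 had no peak over its window in either list. No end of another annotated gene lay within 1 kb of the peak at start 3, so it is the only Dnmt3l peak not shared with a neighbour.

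**Figure D2:**
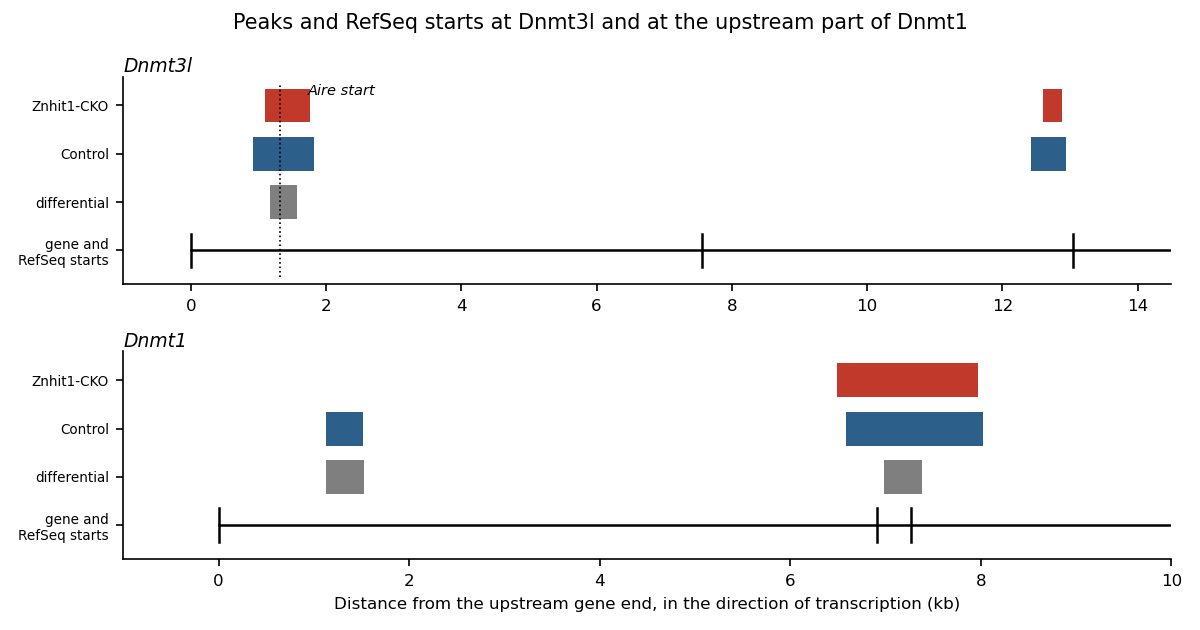
Close view of Dnmt3l and of the upstream part of Dnmt1, with distance from the upstream gene end in kb on the x axis and rows as in the map of all 8 genes; the dotted line marks the start of Aire. The upstream Dnmt3l peak sits over the Aire start, 916 bp into Dnmt3l in control testes, and the wide Dnmt1 peak sits over starts 2 and 3.

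Dnmt3a, one of the 2 de novo methyltransferases, had a wide peak that hardly changed in width. Dnmt3a lies at chr12:3801559-3914443, and starts 1 and 2, whose windows overlap, are 5421 and 5601 bp inside the annotated gene. The peak over them was 2313 bp wide in Znhit1-CKO testes and 2411 bp in control testes (chr12:3806516-3808926), with a differential region in its downstream part. Dnmt3a is known to have a shorter isoform, made from an internal promoter used in germ cells and embryonic stem cells, and start 3 lies 90185 bp into the gene. There a Znhit1-CKO peak of 401 bp stood against a control peak of 597 bp with a differential region. A second control peak of 596 bp on the other side of start 3 had no Znhit1-CKO counterpart and no differential region. Narrow control peaks of 310, 637 and 405 bp elsewhere in the gene also had no Znhit1-CKO peak, and the last 2 of them had a differential region. The wide peak at starts 1 and 2 was thus called again at nearly its full width, while 4 of the 5 other control peaks of the gene were not called.

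Dnmt3b, the other de novo enzyme, had a single peak at its start in each list. It lies at chr2:153649411-153687730. The start peak was 1421 bp wide in Znhit1-CKO testes and 1799 bp in control testes, and the Znhit1-CKO peak lay wholly within the control peak. The differential region there covered 400 bp of it. Dnmt3b also held the only Znhit1-CKO peak in the 8 genes without a control peak, 385 bp wide and 33804 bp downstream of the start, with no differential region.

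In the maintenance pair, the main start peaks were called again in both genes. Dnmt1 lies at chr9:20907206-20959888, and its peak over starts 2 and 3 was 1488 bp wide in Znhit1-CKO testes and 1444 bp in control testes. It was the 1 start peak of the 8 genes that was not narrower in Znhit1-CKO testes, and a differential region still lay on it and covered the whole window of start 3. Start 1, the outermost, had no peak over its window in either list. A control peak of 391 bp lay 1129 bp downstream of start 1, had no Znhit1-CKO peak and lay under a differential region. Dnmt1 is known to use different first exons in oocytes and somatic cells, but the table does not say which start is which.

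Uhrf1 lies at chr17:56303337-56323486 with starts 976 bp apart. Its peak was 1310 bp wide in Znhit1-CKO testes and 1762 bp in control testes, with a differential region near start 2. The upstream edge moved more than the downstream one. The Znhit1-CKO peak covered 33 bp of the window of start 1 and the control peak all 300 bp, while the window of start 2 was wholly covered in both. A further control peak of 371 bp upstream of start 1 had no Znhit1-CKO peak and no differential region.

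The 3 TET genes differed in where their H2A.Z lay. Tet1, at chr10:62804570-62887469, had a start peak of 1904 bp in Znhit1-CKO testes and of 2243 bp in control testes. It was the only gene of the 8 whose widest control peak at a start carried no differential region. The 2 differential regions of Tet1 lay on control peaks of 655 and 651 bp inside the gene, neither with a Znhit1-CKO peak. A pair of neighbouring peaks, 21550 and 20741 bp from the upstream gene end in Znhit1-CKO testes, went the other way, at 957 and 504 bp in Znhit1-CKO testes against 950 and 347 bp in control testes. Both lie within 1 kb of an end of the long noncoding RNA gene Gm51805. Another control peak of 326 bp near them had no Znhit1-CKO peak and no differential region.

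Tet2, at chr3:133463677-133545136, had 1 peak in each list, 1787 bp wide in Znhit1-CKO testes and 2339 bp in control testes, with a differential region. The Znhit1-CKO peak lay wholly within the control peak and still covered the whole start window. No other peak lay in the 81460 bp gene, so the length under peaks at Tet2 is that of its start alone.

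Tet3, at chr6:83362373-83457208, was the gene whose peaks were broken up. At its outer end 2 Znhit1-CKO peaks of 1025 and 390 bp lay under 1 control peak of 2535 bp. At its listed start, 15530 bp inside the gene, Znhit1-CKO peaks of 287 and 338 bp lay under a control peak of 1037 bp. Both control peaks carried a differential region. The peaks at the listed start also lie within 1 kb of an end of the long noncoding RNA gene B230319C09Rik, which starts there on the opposite strand. Over all protein-coding genes, 8.47% of control peaks at a start overlapped 2 or more Znhit1-CKO peaks, and among the 13 such peaks of these genes the Tet3 peak was the only 1.

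**Figure D3:**
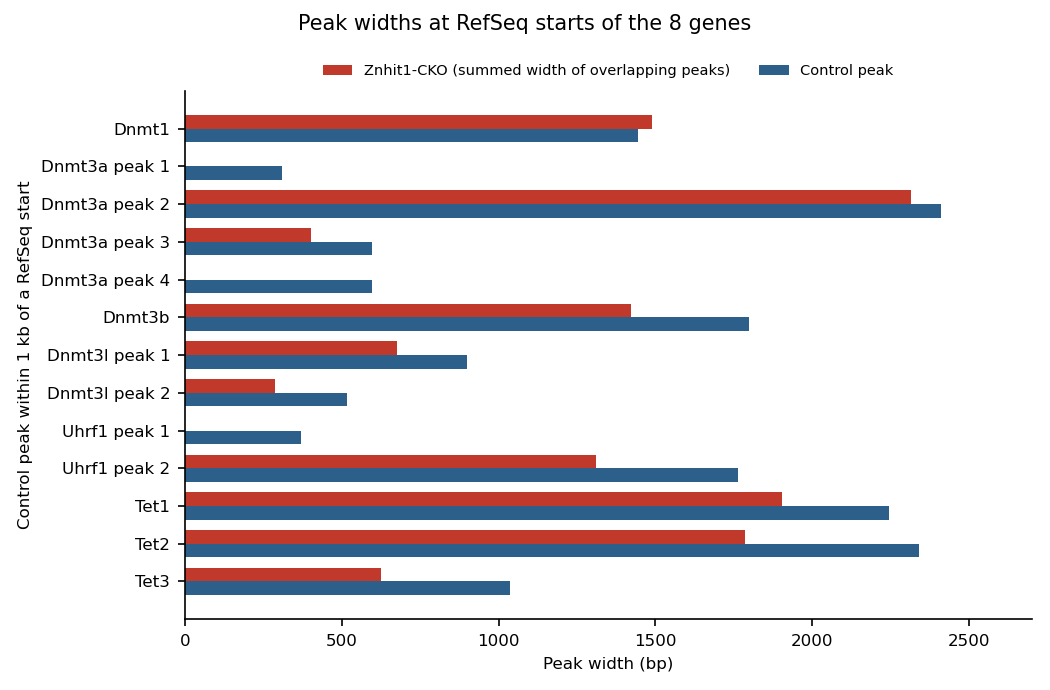
Width in bp of each control peak within 1 kb of a RefSeq start (blue) and the summed width of the Znhit1-CKO peaks that overlap it (red), with peaks numbered by genome position within a gene. Dnmt1 is the only peak with the longer red bar, and 3 narrow control peaks, 2 at Dnmt3a and 1 at Uhrf1, have no red bar.

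Over the 13 control peaks at starts, Znhit1-CKO peaks covered a median of 74.3% of each, with a range of 0 to 96.5%. The median over all 12286 control peaks at starts of protein-coding genes was 79.1% (quartiles 57.6% and 90.6%). Dnmt1 (96.5%) and the wide Dnmt3a peak (95.9%) lay above the upper quartile. Tet1 (84.9%), Dnmt3b (79.0%), Tet2 (76.4%), the upstream Dnmt3l peak (75.4%), the main Uhrf1 peak (74.3%), the Dnmt3a peak of 597 bp at start 3 (67.2%) and Tet3 (60.3%) lay between the quartiles. The Dnmt3l peak at start 3 (55.6%) lay below the lower quartile. The 3 peaks at 0 were 310 and 596 bp wide at Dnmt3a and 371 bp at Uhrf1. They are 3 of 13, against 14.3% of all control peaks at starts. A differential region was found on 8 of the 13, against 59.6% of all.

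**Figure D4:**
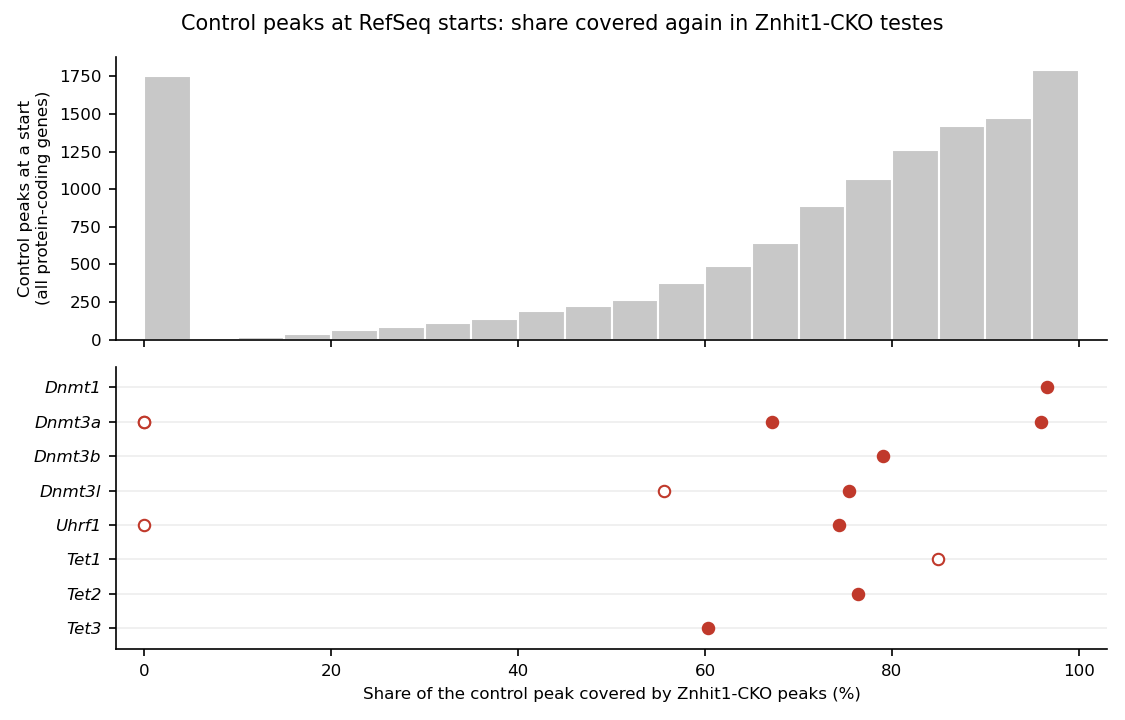
Share of each control peak at a RefSeq start that Znhit1-CKO peaks covered (x axis, percent), as a histogram over all 12286 such peaks (top) and by gene (bottom), with filled points for peaks that carry a differential region. The 2 Dnmt3a peaks at 0 lie on top of each other, and every peak with a differential region is covered by 60.3% or more.

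Dnmt3l stood at the low end of the 8 genes in peak width. Its widest peak within 1 kb of a start was 287 bp in Znhit1-CKO testes and 898 bp in control testes, the lowest of the 8 in both lists. These 2 values belong to different peaks. The control peak of 898 bp lay over the Aire start, and its Znhit1-CKO counterpart of 677 bp lay 1091 bp from start 1 and so was not counted. The peak of 287 bp is the one at start 3, which was 516 bp wide in control testes. With the peak of 677 bp counted, the lowest in Znhit1-CKO testes would be Tet3 (338 bp). The Tet3 value is that of its only listed start, inside the gene. At its outer end, Tet3 had a peak of 1025 bp in Znhit1-CKO testes and of 2535 bp in control testes. With those counted as well, Dnmt3l would stay the lowest in both lists. In the other 7 genes the widest start peak ran from 338 to 2313 bp in Znhit1-CKO testes (median 1488 bp) and from 1037 to 2411 bp in control testes (median 1799 bp). Among all control peaks at starts, the Dnmt3l peaks stood at the 21.6th and 8.05th percentiles of width, while Tet1, Tet2 and the wide Dnmt3a peak stood at the 93.7th, 95.0th and 95.8th. With the peak over the Aire start counted, Dnmt3l did not stand apart in the share of its gene under peaks. Peaks covered 4.13% of Dnmt3l and its flanks in Znhit1-CKO testes and 6.06% in control testes, with rank 3 of 8 in both lists, and the gene is short. Most of that length was the peak over the Aire start, 677 of 964 bp in Znhit1-CKO testes and 898 of 1414 bp in control testes. With the peak at start 3 alone (287 and 516 bp of 23336 bp), the share of Dnmt3l would be the lowest of the 8 in both lists. These are single values per gene and list, and no test of Dnmt3l against the others was possible.

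The length under peaks in each gene and its 1 kb flanks was shorter in Znhit1-CKO testes at 7 of the 8, against 86.3% of the 16401 protein-coding genes with a control peak there. The ratio of Znhit1-CKO over control length was 0.55 at Dnmt3a, 0.57 at Tet3, 0.61 at Uhrf1, 0.65 at Tet1, 0.68 at Dnmt3l, 0.76 at Tet2 and 0.81 at Dnmt1. At Dnmt3b it was 1.00, since the extra Znhit1-CKO peak made up for the narrower start peak. The ratios of most of these genes depend on what is counted. With peaks of at least 500 bp that of Tet3 was 0.29, of Dnmt3l 0.48, of Dnmt3b 0.79 and of Dnmt1 1.03. Without the flanks that of Uhrf1 was 0.97. Without peaks near the end of another gene that of Tet1 was 0.49, and that of Dnmt3l, without the peak over the Aire start, was 0.56. The median was 0.67 over the 8 and 0.77 over all such genes (quartiles 0.51 and 0.93). In all, 15474 bp lay under Znhit1-CKO peaks in the 8 genes and 23220 bp under control peaks. The whole lists covered 25.2 Mb in Znhit1-CKO testes and 43.5 Mb in control testes, which is a larger fall in proportion.

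The control peaks that were not called again were narrow, but some narrow ones were called again. The whole lists held 31156 Znhit1-CKO and 48752 control peaks. The 8 genes and flanks held 16 Znhit1-CKO and 22 control peaks, and 9 of these 22 control peaks had no Znhit1-CKO peak. Those 9 were between 310 and 655 bp wide. Control peaks of 347 bp at Tet1, 516 bp at Dnmt3l and 597 bp at Dnmt3a did have a Znhit1-CKO peak. A differential region lay on 5 of the 9, and the share over all genes was not counted for this. At starts, 3 of 13 control peaks had no Znhit1-CKO peak, against 14.3% of all such peaks. Away from listed starts, 6 of 9 control peaks that overlapped the genes had no Znhit1-CKO peak. The share was 65.5% of such peaks over all protein-coding genes, so the genes are near the background there. Of these 9 control peaks, 6 carried a differential region, against 47.2%. The 9 include the Tet3 peak of 2535 bp, which lies across the outer gene end and had Znhit1-CKO peaks and a differential region. Of 11 pairs of peaks that overlapped only each other, the Znhit1-CKO peak was wider in 3, at Dnmt1 and the 2 inside Tet1, against 20.9% of all 22040 pairs. The median log2 width ratio was -0.34 in the 11 pairs and -0.27 in all.

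The windows themselves show what the starts with and without H2A.Z had in common. Of the 15 start windows of the 8 genes, 12 lay under a Znhit1-CKO peak and 12 under a control peak. Of all 21263 windows of protein-coding genes, 55.9% lay under a Znhit1-CKO peak and 63% under a control peak. Differential regions overlapped 5, against 31.6%. The 3 windows without a peak, Dnmt1 start 1 and Dnmt3l starts 1 and 2, held 2, 6 and 4 CpGs. All windows with a peak held 12 to 57 CpGs, apart from Dnmt3l start 3 with 3. Tet2 had the most, at 57, above 99.8% of all windows, and those of Dnmt3a starts 1 and 2 held 46 and 47. Dnmt3l was thus the only 1 of the 8 genes with no start window above 6 CpGs. The Aire window, printed above, held 16.

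Over all windows, CpG count and H2A.Z went together. In windows with 0 to 4 CpGs, 4.34% lay under a Znhit1-CKO peak and 6.53% under a control peak. With 5 to 13 CpGs, 45.1% lay under a Znhit1-CKO peak and 59.1% under a control peak. With 14 to 24 CpGs it was 88.3% for Znhit1-CKO and 96.6% for control peaks, and with 25 to 67 CpGs it was 93.4% for Znhit1-CKO and 98.5% for control peaks. Of windows under a control peak, 47.2% had no Znhit1-CKO peak in the class with the fewest CpGs, 25.8% and 8.81% in the middle classes, and 5.11% in the class with the most. Start 3 of Dnmt3l, with 3 CpGs, was among the few windows of its class with a peak, and kept it in Znhit1-CKO testes. CpGs were counted as the letters CG, which read the same on both strands. These are counts over windows that share genes and chromosomes, and they describe the lists.

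**Figure D5:**
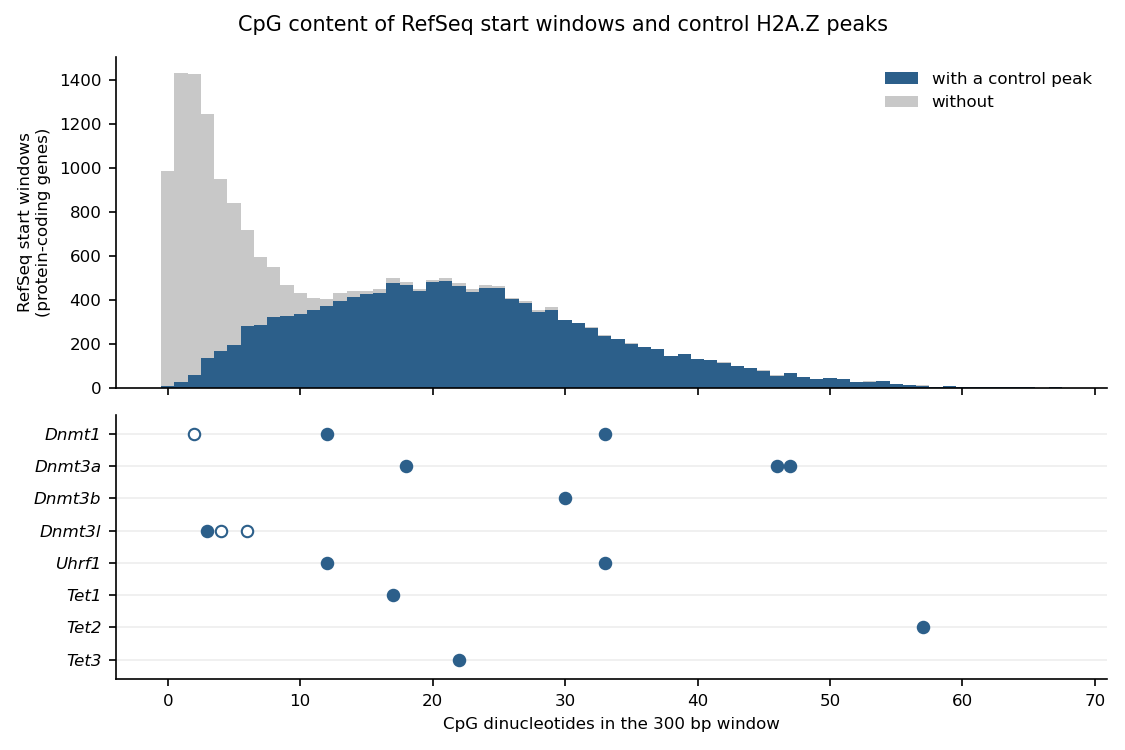
Number of CpGs in each 300 bp RefSeq start window (x axis), as a histogram of all 21263 windows of protein-coding genes split by presence of a control peak (top) and by gene for the 15 windows of the 8 genes (bottom; filled points lie under a control peak). The 3 open points have 2 to 6 CpGs, and all 3 Dnmt3l windows lie in the low-CpG part of the histogram.

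Related genes of the same pathway were set beside the 8. Of 37 found in the protein-coding table, 28 had a peak within 1 kb of a gene end in Znhit1-CKO testes and 32 in control testes. Of the 32, 21 had a differential region there (65.6%), close to the 62.8% of all genes with such a peak. The 4 that lost the peak (12.5% of 32, against 11.5% of all genes) were Dppa3, Morc1, Spocd1 and Ogt. In control testes Dppa3 had peaks of 280 and 793 bp, Morc1 one of 1499 bp, Spocd1 one of 665 bp and Ogt peaks of 525 and 623 bp. No Znhit1-CKO peak overlapped any of them, and all 4 genes but Dppa3 had a differential region at the boundary. DPPA3 protects methylation in the zygote. MORC1 and SPOCD1 are needed for transposon silencing or methylation in male germ cells. OGT is a glycosyltransferase that binds TET proteins.

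By kind, 3 of 11 genes of the other methylation machinery lost the peak. Of CpG readers and their relatives 0 of 9 lost it, and of genes of oxidised base removal and repair 1 of 12. Members of the machinery list that kept a peak with a differential region include Cdca7, Cdca7l, Ehmt2 and Hells. Hells, a chromatin remodeller needed for normal methylation, had a peak of 1441 bp in Znhit1-CKO testes and of 1300 bp in control testes. At Ehmt2, the gene of a histone H3 lysine 9 methyltransferase, it was 2050 bp wide in Znhit1-CKO testes and 2034 bp in control testes. Cdca7, whose product recruits HELLS, had 1640 bp in Znhit1-CKO testes and 2118 bp in control testes, and its paralogue Cdca7l had 1069 bp in Znhit1-CKO testes and 1204 bp in control testes. In the list of CpG readers and their relatives, Mbd5 had peaks of 513 and 1008 bp in Znhit1-CKO testes under a single control peak of 2194 bp. Mbd3 had peaks of 344 and 217 bp in Znhit1-CKO testes, against 888 and 340 bp in control testes. Peaks at Mbd4, the gene of a DNA glycosylase, and Cxxc4, whose product binds unmethylated CpG, were not narrower. Mbd4 had 1611 bp in Znhit1-CKO testes and 1571 bp in control testes, and Cxxc4 had 1177 bp in Znhit1-CKO testes and 1082 bp in control testes. In the repair list, Apex1 had 1383 bp in Znhit1-CKO testes and 1496 bp in control testes, and Gadd45a had 2115 bp in Znhit1-CKO testes and 2145 bp in control testes. Neil2, a DNA glycosylase gene, had 1021 bp in Znhit1-CKO testes and 1280 bp in control testes. Smug1, a uracil glycosylase gene, had peaks of 857 and 542 bp in Znhit1-CKO testes and of 1039 and 603 bp in control testes. The peaks of Mbd4, Apex1 and Gadd45a also lie near an end of another gene, so they are not peaks of the named gene alone.

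Zfp57, Usp7, Mbd3l1, Mbd3l2 and Zbtb38 had no peak at a gene end in either list, although Zfp57, Usp7 and Zbtb38 had one at a RefSeq start in both. Dnmt3c, the rodent de novo enzyme of male germ cells, is entered in the RefSeq table as the pseudogene Dnmt3b-ps1 (chr2:153706484-153730013), 18754 bp beyond Dnmt3b. It had no peak at its ends in either list, and the only peak in its span was a Znhit1-CKO peak of 296 bp. Dnmt3b and Dnmt3c are close relatives, so reads could be shared between them.

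Genes that mark the cell types of the testis had peaks as follows, which do not measure how many such cells were present. Of 6 germ cell genes, 4 had a boundary peak in Znhit1-CKO testes and 6 in control testes, with Sycp3 and Stra8 lost. In control testes the Sycp3 peak was 944 bp wide and carried a differential region. The Stra8 peak was 205 bp wide, the lowest width in the control list, with no differential region. Stra8 had no peak at a listed start in either list. Of 5 Sertoli cell genes, 3 had one in Znhit1-CKO testes and 4 in control testes, with Clu lost (1323 bp in control testes). Of 4 Leydig cell genes none had one in either. Over all protein-coding genes 60.4% had one in Znhit1-CKO testes and 67.6% in control testes, and 11.5% of genes with a control peak had lost it. The part of cell composition in the values above was not tested.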

How the data were processed

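H2A.Z ChIP-seq libraries of Znhit1-CKO and control testes were processed by the authors, and the deposited files are 3 lists of intervals (chromosome, start, end) without any count, score or p-value. Per the submitters' processing notes, the tools include MACS2 2.2.4, a peak caller, and BWA 0.7.17, an aligner, beside cutadapt 2.5, Picard 2.20.7 and SAMtools 1.9, with the mm10 build. Peak threshold, pooling of replicates and the settings behind the differential regions were not given in the sources used here. The lists give 1 entry per genotype, so inputs and replicates were not analysed separately here.

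Genes (49997, of which 21900 protein-coding) and 300 bp start windows came from RefSeq GRCm38.p6, whose primary chromosomes are those of mm10, and 17492 protein-coding genes and all 8 members had a start window. Sequences are credited to the same RefSeq release. An interval was at a gene end or start if it lay within 1000 bp, and peaks overlapped if they shared at least 1 bp. Coordinates count from 1. Starts came from the promoter table, which was used after the lists were seen. Overlap counts and covered lengths matched bedtools 2.31.1 for all 48752 control peaks, and 2000 of 2000 planted boundary states were recovered. Python 3.11.15, numpy 2.4.6, pandas 2.3.3 and matplotlib 3.10.9 were used.

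The members, related genes and markers were chosen with earlier results of these data known. Named genes are the 8 members, related genes that lost the boundary peak or had none, Dnmt3c, the first 4 others by symbol in each list that have a differential region there, and neighbours of a member's peak. Genes of chromosome 18 were left out of the related genes, and 1 related gene is not reported here.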

Additional observations from a re-analysis of the deposited data

How the results depend on the processing

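Of 36 alternatives to 6 results, 29 stayed within 1.5 times the main value and 7 did not. Only the median length ratio has a direction that could turn, and it stayed below 1 in its alternatives. The ratio of a single gene could cross 1, as at Dnmt1 below. The count of members that lost the boundary peak (1, Dnmt3l) was 0 with a window of 500 bp, 0 without peaks near another gene's end, 0 where any overlapping Znhit1-CKO peak counted and 0 at RefSeq starts. It stayed at 1 with 2000 bp, where the gene was Dnmt1, and with 50% overlap of both peaks, where it was Tet3. Members with a Znhit1-CKO boundary peak (5) numbered 8 at RefSeq starts, and those with a control peak ranged from 5 to 8. Related genes that lost the peak (4) numbered 1, Ogt, at the transcription start end only and 1 at RefSeq starts, where Dppa3, Morc1 and Spocd1 have no listed start and so were not counted. The median length ratio (0.67) ranged from 0.59 without peaks near another gene's end to 0.75 for peaks of at least 500 bp. That minimum took the ratio of Dnmt1 from 0.81 to 1.03, of Dnmt3b from 1.00 to 0.79 and of Tet3 from 0.57 to 0.29. Leaving out the flanks took that of Uhrf1 from 0.61 to 0.97.

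The alternative at RefSeq starts was chosen after seeing the data and not planned. No paired analysis was possible because each genotype has a single peak list, and leaving out a replicate was not possible for the same reason. Depth per library is unknown, so how near a peak lay to the authors' threshold cannot be told.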
